A study of Mus musculus with 5 samples.

Results

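The 31 genes described here encode the machinery that brings pyruvate into the mitochondrial citric acid cycle and runs that cycle. They comprise the subunits of the pyruvate dehydrogenase complex, its kinases and phosphatases, pyruvate carboxylase, the cycle's enzymes, the citrate carrier and glutamate dehydrogenase. They were chosen by symbol from 38463 gene symbols with FPKM values (fragments per kilobase of transcript, scaled to the mapped reads of a library), and each of the 31 had exactly 1 row in the table. The pyruvate dehydrogenase complex turns pyruvate into acetyl-CoA and is switched off when its kinases phosphorylate it and on again by its phosphatases. The cycle then oxidises the acetyl group and passes the electrons to the respiratory chain, and its intermediates leave for biosynthesis. In macrophages the cycle is known to be rerouted on inflammatory activation, when citrate is drawn off for lipid and itaconate synthesis and succinate accumulates.

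Bulk RNA was sequenced from peritoneal macrophages, phagocytes of the mouse abdominal cavity, grown in F12 DMEM with 10% serum. The knockout group held 2 libraries of strain LysMCre-Nrp1fl/fl, genotype Nrp1-/-, in which Cre recombinase driven by the lysozyme M gene, active in myeloid cells, removes floxed Nrp1, the gene of the semaphorin and VEGF co-receptor neuropilin 1. The wild-type group held 3 libraries of a strain labelled C7/BL6, whose labels name neither Cre nor floxed alleles. The comparison asks what loss of Nrp1 does to the macrophage transcriptome, and age, sex and the number of animals behind a library are not given in the sources used here. Nrp1 had 7.63 and 7.70 FPKM in the knockout libraries, against 24.3, 19.0 and 11.5 FPKM in the wild-type libraries. Its log2 fold change was -1.09 ± 0.32 (SE) and did not pass (limma adjusted p = 0.927).

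Library totals ran from 539101 to 558832 FPKM in the knockout and from 555465 to 629135 FPKM in the wild-type group. The number of genes at 1 FPKM or more was 12003 and 12000 in knockout libraries, against 11947, 12020 and 11014 in wild-type libraries. Wild-type replicate 3 stood apart, with Pearson's r across tested genes of 0.929 to 0.938 with the other 4 libraries, which reached 0.966 to 0.972 among themselves. None of the 31 genes was in a row where its values had been displaced. The macrophage markers Emr1, Csf1r, Cd68 and Itgam were high throughout. Csf1r, the receptor for colony stimulating factor 1, had 943 and 793 FPKM in knockout against 765, 864 and 1108 FPKM in wild-type libraries. Gata6, another macrophage marker, had far fewer, 9.82 and 8.51 FPKM in knockout against 8.79, 9.65 and 7.01 FPKM in wild-type libraries. The 6 mast cell markers summed to 18.2 to 34.0 FPKM in knockout and 16.3 to 176 FPKM in wild-type libraries, the highest sum being that of wild-type replicate 3. The 13 markers of mesothelial cells and fibroblasts summed to 24.6 to 31.9 FPKM in knockout and 27.7 to 61.3 FPKM in wild-type libraries. Msln and Upk3b, which define mesothelium, stayed below 0.2 FPKM in each library. Krt18 had 0.27 and 0.078 FPKM in knockout against 0.67, 0.83 and 1.11 FPKM in wild-type libraries. Krt8 had 0.29 and 0.18 FPKM in knockout against 0.66, 0.41 and 1.04 FPKM in wild-type libraries. Msln, Krt8, Krt18 and Wt1, too low to be tested, stood lower in knockout without overlap. Upk3b, Krt19 and Lum, also untested, overlapped. Of the 6 tested, Col1a2 and Bgn stood lower in knockout without overlap, and Col1a1, Col3a1, Dcn and Sparc overlapped. Col1a2 had 5.29 and 3.59 FPKM in knockout against 9.07, 9.37 and 5.60 FPKM in wild-type libraries. Neither Col1a2 nor Bgn passed (limma adjusted p = 0.927). The part of these other cells in the values below was not tested, and in bulk RNA fewer cells of a type cannot be told apart from less RNA per cell.

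All 31 genes were expressed. Of them 31 had at least 1 FPKM in both knockout libraries, against 31, 31 and 30 in wild-type replicates 1, 2 and 3. Their median level over the 5 libraries was 24.9 FPKM, against 8.96 FPKM for the 12214 genes tested, which had at least 1 FPKM in at least 2 libraries. FPKM are scaled by length, so levels of different genes can be set roughly side by side. Distances between libraries still went with length and GC content, as given below for wild-type replicate 3. Sdhb, the iron-sulphur subunit of succinate dehydrogenase, was first in order of mean level, followed by Slc25a1, Mdh2, Sdha and Mdh1. Slc25a1 owed that place to wild-type replicate 3, and over the other 4 libraries the order was Sdhb, Sdha, Mdh2, Slc25a1 and Mdh1. Pdp2, Pdk4 and Pdp1, all regulators of pyruvate dehydrogenase, were last. Without wild-type replicate 3 the last were Pdp2, Pcx and Pdp1, and Pdk4 had rank 26. Some neighbours in the order overlapped in range, as did Cs, Sdhd and Ogdh, whose values all lay between 49.4 and 63.9 FPKM.

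**Figure D1:**
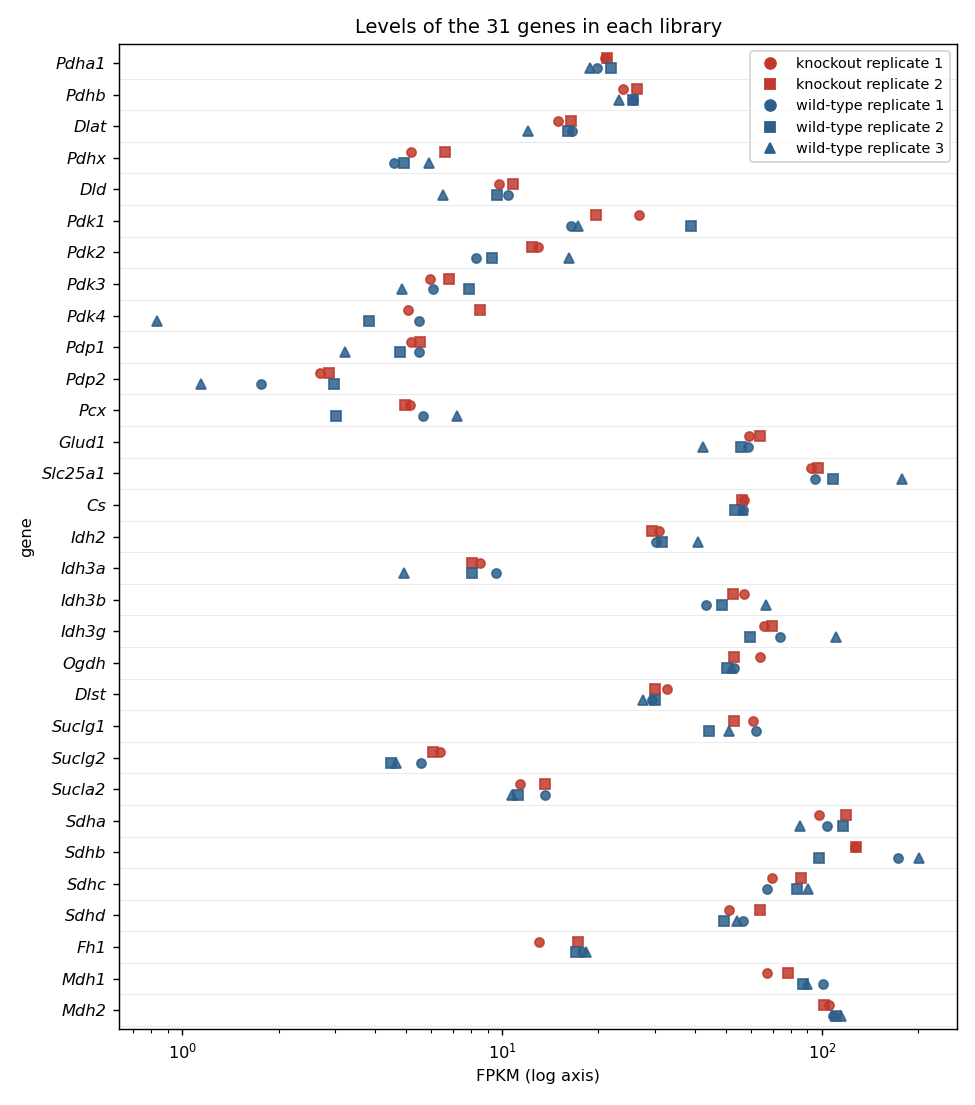
FPKM on a log axis of each of the 31 genes in the 2 knockout libraries (red, upper row of each gene) and the 3 wild-type libraries (blue, lower row), in order of their place in the pathway. The spread between libraries differs from gene to gene, and Cs, the steadiest, lies between 53.5 and 57.1 FPKM. Wild-type replicate 3 (triangle) lies at an end of the row for many genes, down to 0.835 FPKM for Pdk4.

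Not a single gene of the 31 passed the test between genotypes. The test was limma on log2(FPKM + 1) over all 12214 genes, where 7 genes (0.0573%) had an adjusted p under 0.05, and 0 of the 31 did. In the higher direction 5 genes (0.0409%) and in the lower direction 2 genes (0.0164%) passed, again 0 of the 31 in each. Adjusted p ran from 0.927 to 0.998, and at an unadjusted p under 0.05 there were 0 of the 31 as well, where 1.82% of all tested genes fell. An exact two-sided permutation of 2 and 3 libraries, with the smaller tail doubled, cannot give a p below 0.2. No single gene could therefore reach 0.05 that way. The log2 fold change was positive for 23 and negative for 8 of the 31, with 63.9% positive among all tested genes. The median was 0.07, against 0.11 over all tested genes, so relative to that shift 12 genes lay above it and 19 below. Under median-of-ratios scaling, which brings the median of all genes to 0.0019, the number with a positive value was 11 of 31. The genes' median distance from the median of all genes was 0.10 on the log2 scale, against 0.20 for all tested genes. For tested genes with a mean of at least 5 FPKM it was 0.21. These are descriptions that share the libraries, and the part of expression level was not tested.

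In 5 of the 31 genes (16.1%) the knockout and wild-type values did not overlap, against 20.8% of all tested genes. Dlst, Suclg2 and Glud1 stood higher in knockout (3 genes, against 13.9% of all tested genes in that direction), and Mdh1 and Mdh2 stood lower (2 genes, against 6.95%). The count lies near the background. With libraries rescaled to equal sums the number was again 5, namely Pdhx, Ogdh, Suclg2 and Glud1 higher and Mdh1 lower. After median-of-ratios scaling 3 were left, against 21.5% of all tested genes, Suclg2 higher and Mdh1 and Mdh2 lower. Suclg2 and Mdh1 were thus the 2 genes without overlap under all 3 scalings. Without wild-type replicate 3 the count was 8 of 31 (25.8%), against 32.4% of all genes then tested.

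For each subunit gene of the pyruvate dehydrogenase complex the genotypes overlapped in level. Pdha1, the decarboxylase subunit that carries the regulatory phosphorylation sites, had 20.99 and 21.3 FPKM in knockout against 19.8, 21.8 and 18.9 FPKM in wild-type libraries. Its partner Pdhb, the beta subunit of the decarboxylase, had 23.9 and 26.3 FPKM in knockout against 25.7, 25.6 and 23.2 FPKM in wild-type libraries. Both knockout values of Pdha1 lay inside the wild-type range, while of Pdhb knockout replicate 2 was above each wild-type library, and the log2 fold changes were 0.07 ± 0.20 and 0.02 ± 0.19 (SE). The 95% confidence interval of the Pdhb change ran from -0.44 to 0.48, so changes within those bounds are compatible with these values. Dlat, the acetyltransferase core, had 14.9 and 16.4 FPKM in knockout against 16.5, 16.1 and 12.005 FPKM in wild-type libraries. Dld, the lipoamide dehydrogenase that the complex shares with 2-oxoglutarate dehydrogenase, had 9.78 and 10.8 FPKM in knockout against 10.4, 9.63 and 6.55 FPKM in wild-type libraries. In Dlat and Dld wild-type replicate 3 was the low library and the others lay close together. Pdhx, which tethers Dld to the core, had 5.20 and 6.63 FPKM in knockout against 4.61, 4.94 and 5.90 FPKM in wild-type libraries. Summed over these 5 genes the complex had 74.8 and 81.5 FPKM in knockout against 77.1, 78.1 and 66.5 FPKM in wild-type libraries, and the shares of Pdha1, Dlat, Pdhx and Dld in that sum overlapped between genotypes. Pdhb held 32.0 and 32.3% in knockout against 33.4, 32.8 and 34.8% in wild-type libraries, shares that did not overlap.

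Near-identical sequence elsewhere limits some of these values. Of the 50-base stretches in the longest coding transcript, 30.3% for Pdhb were also found in its processed pseudogene Gm6123, and 16.5% for Pdha1 in Map3k15, whose exons overlap those of Pdha1 by 603 bases on the opposite strand. Map3k15 had at most 1.38 FPKM. The sources used here do not say whether strand was used in counting, so reads of Pdha1 and Map3k15 in the overlap cannot be told apart.

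The kinases and phosphatases of the complex did not separate the genotypes. Pdk4, the kinase that is induced by fasting and fatty acids in several tissues, had 5.07 and 8.52 FPKM in knockout against 5.50, 3.83 and 0.835 FPKM in wild-type libraries. The groups overlapped, with knockout replicate 1 below wild-type replicate 1, and the highest of the 5 values was 10.2 times the lowest. The log2 fold change was 0.98 ± 0.54 (SE, limma adjusted p = 0.927) with an interval from -0.30 to 2.26. Leaving out wild-type replicate 3, the low library, gave 0.44, and leaving out knockout replicate 2 gave 0.65.

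Pdk1, a kinase induced in hypoxia, had 26.7 and 19.6 FPKM in knockout against 16.5, 39.0 and 17.2 FPKM in wild-type libraries. Its highest and lowest values were both wild-type, and its log2 fold change of 0.03 ± 0.40 (SE) became 0.42 when wild-type replicate 2 was left out and -0.15 when wild-type replicate 3 was. Hif1a, the hypoxia factor known to induce Pdk1, had 57.9 and 56.8 FPKM in knockout against 40.5, 69.6 and 26.3 FPKM in wild-type libraries. A link between the values of these genes was not tested. Pdk2, the widely expressed kinase, had 12.9 and 12.4 FPKM in knockout against 8.26, 9.30 and 16.2 FPKM in wild-type libraries. Both knockout values lay between those of wild-type replicates 2 and 3, and the log2 fold change of 0.21 ran from 0.034 with wild-type replicate 1 left out to 0.48 with wild-type replicate 3 left out. Pdk3 had 5.96 and 6.81 FPKM in knockout against 6.09, 7.87 and 4.85 FPKM in wild-type libraries, the knockout values again inside the wild-type range.

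As a share of the summed FPKM of the 4 kinase genes, Pdk1 held 52.7 and 41.5% in knockout against 45.3, 65.0 and 44.0% in wild-type libraries. Pdk1 was thus the first kinase in each library. Pdk4 held 10.0 and 18.02% in knockout against 15.2, 6.37 and 2.13% in wild-type libraries. The second place belonged to Pdk2 in each library, with 25.5 and 26.1% in knockout against 22.8, 15.5 and 41.5% in wild-type libraries. Pdp1, the phosphatase stimulated by calcium, had 5.17 and 5.52 FPKM in knockout against 5.48, 4.79 and 3.22 FPKM in wild-type libraries. Pdp2, the other phosphatase, had 2.69 and 2.87 FPKM in knockout against 1.76, 2.99 and 1.14 FPKM in wild-type libraries. For both the groups overlapped, and wild-type replicate 3 was lowest. Kinase FPKM exceeded phosphatase FPKM in every library, by 6.44 and 5.64 times in knockout against 5.02, 7.72 and 8.96 times in wild-type libraries.

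**Figure D2:**
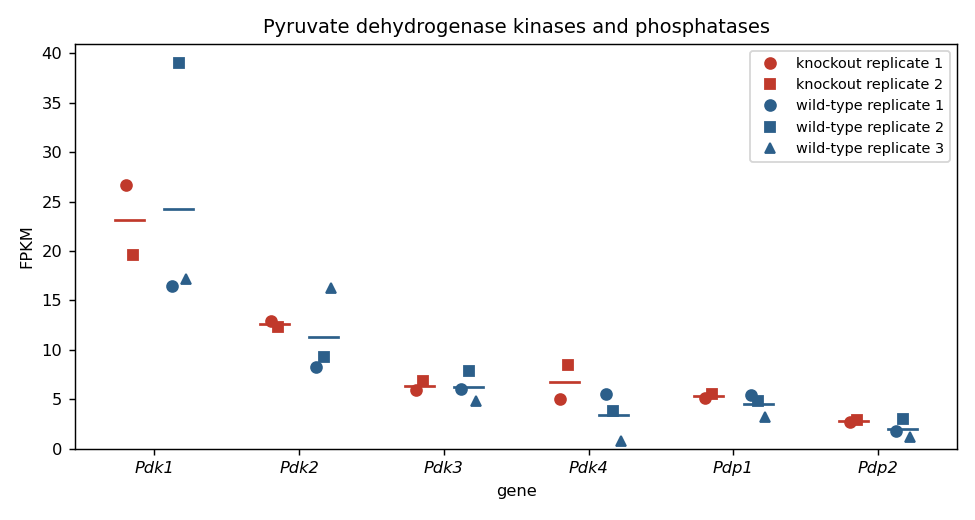
FPKM of the 4 pyruvate dehydrogenase kinase genes and the 2 phosphatase genes in knockout (red, left of each pair) and wild-type libraries (blue, right), with the group mean as a line. Groups overlap for all 6 genes, and Pdk1 in wild-type replicate 2, at 39.0 FPKM, is the highest point.

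Genes that feed the cycle or drain it followed. Pcx encodes pyruvate carboxylase, which makes oxaloacetate from pyruvate, and had 5.15 and 4.98 FPKM in knockout against 5.65, 3.02 and 7.20 FPKM in wild-type libraries. The knockout values lay inside the wild-type range. Glud1, the enzyme that turns glutamate into 2-oxoglutarate, had 59.0 and 64.1 FPKM in knockout against 58.8, 55.9 and 42.4 FPKM in wild-type libraries. Both knockout values were above all wild-type values, with 0.227 FPKM between the nearest libraries, and the log2 fold change was 0.24 ± 0.22 (SE, limma adjusted p = 0.927), or 0.10 without wild-type replicate 3. Slc25a1, the carrier that exports citrate to the cytosol, had 92.6 and 97.3 FPKM in knockout against 95.3, 108 and 178 FPKM in wild-type libraries. Its log2 fold change was -0.36 ± 0.30 (SE), the lowest of the 31 genes, and it was -0.10 without wild-type replicate 3, the high library.

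In the first span of the cycle, citrate synthase had the steadiest transcript. Cs had 57.1 and 56.3 FPKM in knockout against 56.7, 53.5 and 56.4 FPKM in wild-type libraries, a log2 fold change of 0.03 ± 0.19 (SE) with an interval from -0.41 to 0.47. Idh2, the mitochondrial isocitrate dehydrogenase that makes NADPH, had 30.99 and 29.4 FPKM in knockout against 30.4, 31.5 and 40.9 FPKM in wild-type libraries. Its values lay close together apart from wild-type replicate 3.

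The NAD-dependent isocitrate dehydrogenase is built from the products of Idh3a, its catalytic subunit, and Idh3b and Idh3g. Idh3a had 8.51 and 8.04 FPKM in knockout against 9.53, 8.05 and 4.94 FPKM in wild-type libraries. Idh3b had 56.8 and 52.8 FPKM in knockout against 43.4, 48.8 and 66.7 FPKM in wild-type libraries. Idh3g had 66.0 and 69.7 FPKM in knockout against 73.9, 59.6 and 110.2 FPKM in wild-type libraries. The 3 subunit genes overlapped between genotypes, and wild-type replicate 3 was the lowest library for Idh3a and the highest for Idh3b and Idh3g. Idh3a made up 6.48 and 6.16% of their summed FPKM in knockout against 7.51, 6.91 and 2.71% in wild-type libraries. The ratio of Idh3g to Idh3a was 7.76 and 8.67 in knockout against 7.76, 7.41 and 22.3 in wild-type libraries, so wild-type replicate 3 alone departed from the rest. The complex that follows oxidises 2-oxoglutarate. Its first subunit gene, Ogdh, had 63.9 and 52.9 FPKM in knockout against 53.0, 50.4 and 52.2 FPKM in wild-type libraries. Its succinyltransferase gene, Dlst, had 32.8 and 30.0 FPKM in knockout against 29.4, 29.9 and 27.5 FPKM in wild-type libraries. Dlst did not overlap between groups, yet the log2 fold change was 0.11 ± 0.19 (SE), close to the shift of all genes, 0.11.

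Succinyl-CoA ligase pairs the alpha subunit encoded by Suclg1 with a beta subunit that sets whether GTP or ATP is made. Suclg2, the GTP-forming beta subunit, had 6.41 and 6.08 FPKM in knockout against 5.57, 4.50 and 4.67 FPKM in wild-type libraries. Each knockout value was above each wild-type value, with a log2 fold change of 0.30 ± 0.22 (SE, limma adjusted p = 0.927) that ran from 0.25 to 0.38 when a library was left out and was 0.12 after quantile normalization. Sucla2, the ATP-forming beta subunit, had 11.4 and 13.6 FPKM in knockout against 13.6, 11.2 and 10.8 FPKM in wild-type libraries, and the groups overlapped. Suclg2 held 36.1 and 30.9% of the 2 beta subunits' FPKM in knockout against 29.0, 28.7 and 30.3% in wild-type libraries. These shares did not overlap, although knockout replicate 2 and wild-type replicate 3 lay within 1 percentage point. Suclg1 had 61.0 and 53.0 FPKM in knockout against 62.3, 44.2 and 51.1 FPKM in wild-type libraries, 2.70 to 3.43 times the sum of both beta subunits in knockout and 2.81 to 3.32 times in wild-type libraries. Of the 50-base stretches of Suclg2, 21.8% were shared with its processed pseudogene Gm15163, listed at 1.86 and 2.64 FPKM in knockout against 1.36, 1.65 and 1.46 FPKM in wild-type libraries, so reads can be split between them.

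Succinate dehydrogenase, which is also complex II of the respiratory chain, had overlapping values for all 4 subunit genes. Sdha, the flavoprotein, had 97.5 and 119 FPKM in knockout against 104, 116 and 85.4 FPKM in wild-type libraries. Sdhb had 127 and 127 FPKM in knockout against 173, 97.6 and 201 FPKM in wild-type libraries. The knockout values of Sdhb were alike, while its wild-type values spread over 2.06 times. Its log2 fold change of -0.24 ± 0.33 (SE) became -0.03 when wild-type replicate 3 was left out and -0.55 when wild-type replicate 2 was. The membrane anchor gene Sdhc had 69.7 and 85.9 FPKM in knockout against 67.1, 83.8 and 90.2 FPKM in wild-type libraries. The other anchor gene, Sdhd, had 51.0 and 63.8 FPKM in knockout against 56.6, 49.4 and 54.2 FPKM in wild-type libraries. Fh1, fumarase, had 13.0 and 17.2 FPKM in knockout against 17.8, 17.02 and 18.3 FPKM in wild-type libraries. In Fh1 knockout replicate 1 was the low library, and knockout replicate 2 lay within the wild-type range.

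Malate dehydrogenase genes stood lower in both knockout libraries. Mdh1, the cytosolic enzyme of the malate-aspartate shuttle, had 67.1 and 78.3 FPKM in knockout against 100.4, 87.0 and 89.7 FPKM in wild-type libraries. The mean was 72.7 ± 7.87 FPKM (SD, n = 2) in knockout and 92.4 ± 7.08 FPKM (SD, n = 3) in wild-type libraries. The log2 fold change was -0.34 ± 0.20 (SE, limma adjusted p = 0.927), with an interval from -0.82 to 0.14 and values of -0.45 to -0.23 when any library was left out. Mdh2, the mitochondrial enzyme that closes the cycle, had 105 and 102 FPKM in knockout against 108, 111 and 114 FPKM in wild-type libraries. Here the groups were separate by 2.68 FPKM, giving a log2 fold change of -0.10 ± 0.19 (SE). It ran from -0.22 after median-of-ratios scaling to -0.019 with libraries rescaled to equal sums. Mdh1 held 38.9 and 43.5% of the FPKM of both genes in knockout against 48.2, 44.0 and 44.0% in wild-type libraries. These shares did not overlap, though the nearest, 43.5 and 44.0%, lay close together, and they restate the same FPKM values. Both genes kept a negative fold change in each of the 16 fits made, and neither passed in any.

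**Figure D3:**
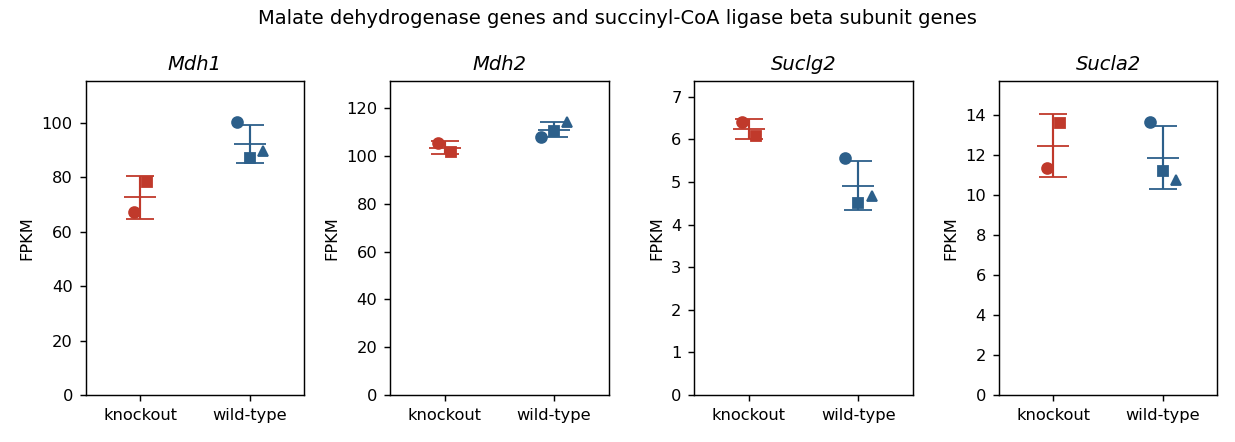
FPKM of Mdh1, Mdh2, Suclg2 and Sucla2 in each knockout library (red, left) and wild-type library (blue, right), with mean and SD as bars and each vertical axis starting at 0. Circles, squares and triangles are replicates 1, 2 and 3. The groups are apart for Mdh1, Mdh2 and Suclg2 and overlap for Sucla2.

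The promoters of the 3 genes whose groups stayed apart after median-of-ratios scaling, and of Pdk4, whose values ranged widest, are shown as context. Of the 31 genes 28 were matched by symbol to RefSeq promoter windows of build GRCm38.p6, each 300 bases long and covering 250 bases before to 50 bases after the start that RefSeq gives. The sequences, from RefSeq, are written 5′ to 3′ on the gene's strand. Mdh1 lies on the minus strand at chr11:21571885-21572184, Mdh2 on the plus strand at chr5:135778399-135778698, Suclg2 on the minus strand at chr6:95718797-95719096 and Pdk4 on the minus strand at chr6:5496229-5496528. The genes themselves span chr11:21556787-21572367 (Mdh1), chr5:135778480-135790398 (Mdh2), chr6:95473009-95718800 (Suclg2) and chr6:5483351-5496309 (Pdk4) in GENCODE M21, build GRCm38, and all 4 are protein-coding. The start used by RefSeq lies 433 bases inside that span for Mdh1, 169 bases inside for Mdh2, 31 bases inside for Pdk4 and 46 bases before it for Suclg2, so the Mdh1 window lies wholly within the annotated gene. Capitals mark matches on either strand to CCAAT, to the GC box GGGCGG, to the hypoxia response core ACGTG and to TCTCGCG. The letters of the last, of the GC box and of the NRF1 core below were chosen after the windows had been read.
Mdh1: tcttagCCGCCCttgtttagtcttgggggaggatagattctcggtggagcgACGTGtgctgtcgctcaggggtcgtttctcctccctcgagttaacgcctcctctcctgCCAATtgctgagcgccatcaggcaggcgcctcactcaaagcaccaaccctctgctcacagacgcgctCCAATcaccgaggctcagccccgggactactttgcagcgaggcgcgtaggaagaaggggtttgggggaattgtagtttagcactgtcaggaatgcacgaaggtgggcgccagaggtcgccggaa
Mdh2: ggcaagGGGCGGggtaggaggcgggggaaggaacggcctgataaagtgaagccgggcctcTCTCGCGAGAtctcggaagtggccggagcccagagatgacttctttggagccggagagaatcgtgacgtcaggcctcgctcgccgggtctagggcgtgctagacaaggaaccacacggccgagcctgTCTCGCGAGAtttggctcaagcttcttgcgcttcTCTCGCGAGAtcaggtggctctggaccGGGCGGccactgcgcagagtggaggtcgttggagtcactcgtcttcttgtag
Suclg2: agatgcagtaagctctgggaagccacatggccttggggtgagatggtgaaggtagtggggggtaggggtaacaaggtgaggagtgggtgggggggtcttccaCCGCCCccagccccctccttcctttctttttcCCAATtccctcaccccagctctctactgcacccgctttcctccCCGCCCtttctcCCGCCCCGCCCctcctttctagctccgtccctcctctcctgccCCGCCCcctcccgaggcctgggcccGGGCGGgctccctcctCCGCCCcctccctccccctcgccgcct
Pdk4: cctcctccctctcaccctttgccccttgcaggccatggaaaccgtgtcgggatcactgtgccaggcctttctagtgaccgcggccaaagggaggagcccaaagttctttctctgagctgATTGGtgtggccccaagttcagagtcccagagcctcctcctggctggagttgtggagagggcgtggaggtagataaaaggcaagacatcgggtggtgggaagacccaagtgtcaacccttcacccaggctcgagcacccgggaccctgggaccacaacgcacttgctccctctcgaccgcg
The Mdh1 window held 2 CCAAT matches, 1 GC box and 1 ACGTG, and the Mdh2 window held 6 matches to TCTCGCG, in 3 overlapping pairs of opposite strands, and 2 GC boxes. In the Suclg2 window there were 7 GC boxes, of which a pair share a base, and 1 CCAAT, and in the Pdk4 window 1 CCAAT on the opposite strand.

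Those letters are common or rare to different degrees. In the first listed window of each gene, CCAAT stood in 18 of the 28 matched genes and in 37.9% of all genes, GGGCGG in 20 of 28 and 35.9%, and ACGTG in 10 of 28 and 19.7%. TCTCGCG stood in 2 of 28, Mdh2 and Idh3g, and in 2.72% of all genes. CCGGAAG, the core bound by ETS factors and GABP, was found in 6 of 28 and 9.12%, and the NRF1 core GCGCATG in 2 of 28 and 4.04%. AAGGTCA, the letters bound by estrogen-related receptors, was found in 1 of 28, Sdhd, and in 4.66% of all genes, and the sterol response element TCACNCCAC in 0 of 28 and 1.22%. All were searched on both strands. The median GC content of these windows was 62.0%, against 52.7% for all windows. The part of base composition in these matches was not tested.

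Wild-type replicate 3 was the highest or the lowest of the 5 libraries for 23 of the 31 genes (74.2%), as for 75.6% of all tested genes. It was the highest for 10, among them Slc25a1, Idh3g, Sdhb and Pdk2, and the lowest for 13, among them Pdk4, Idh3a, Pdp1, Pdp2 and Dld. Its distance from the mean of the other 4 libraries, on the log2(FPKM + 1) scale, ran from -1.83 for Pdk4 to 0.85 for Slc25a1. Across the 31 genes that distance had a Spearman's rho of 0.72 with the GC content and of -0.54 with the length of the longest coding transcript in GENCODE M21. Across the 11512 tested genes with a transcript length it was 0.41 and -0.35. Genes are not independent replicates, and these values share 1 library. The median SD on the log2 scale for the 31 genes was 0.09 between the knockout libraries, against 0.24 among the wild-type libraries, and over all tested genes it was 0.12 in knockout against 0.33 in wild-type libraries.

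Across the 31 genes the log2 fold change between genotypes had a rho of 0.48 with transcript length, and of 0.25 without wild-type replicate 3, against 0.32 and 0.15 across all tested genes. The part of transcript length and GC content in the differences between genotypes was not tested. Without wild-type replicate 3, 19 of the 31 fold changes were positive, and 0 of the 31 passed, the adjusted p being 0.997 or above for each.

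**Figure D4:**
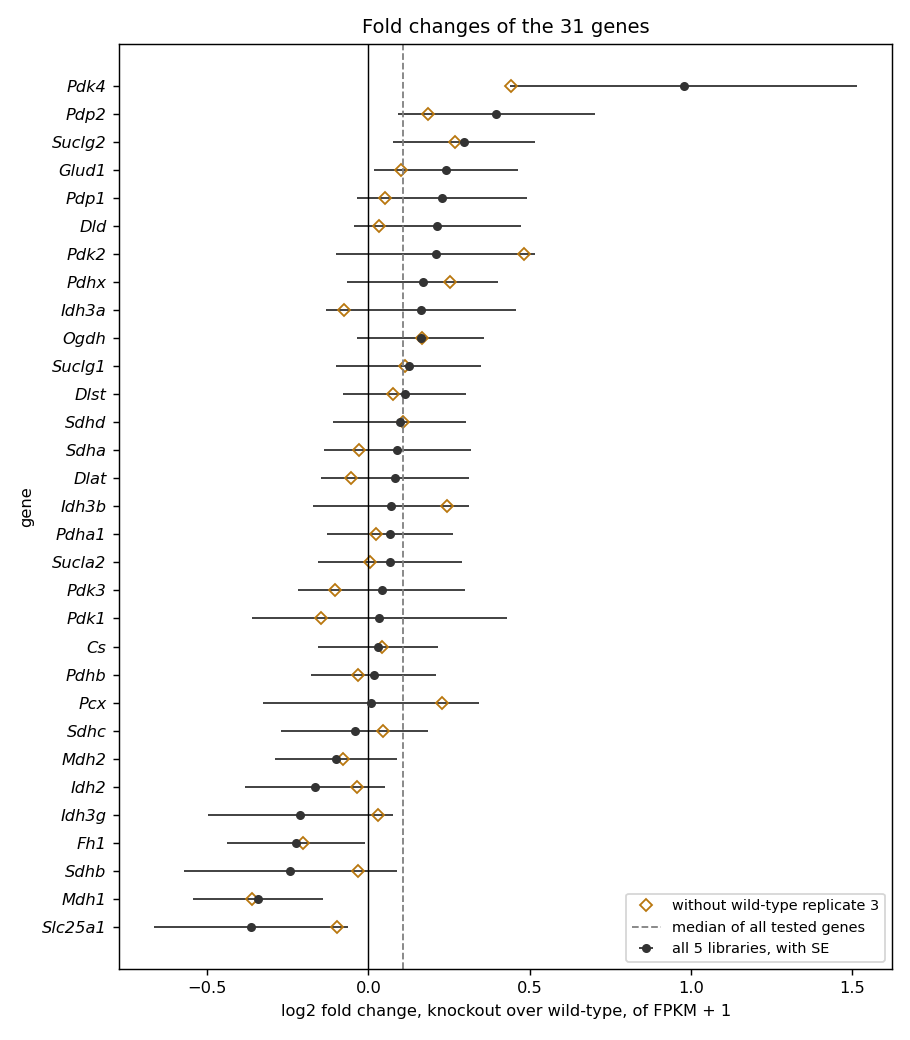
Log2 fold change of FPKM + 1, knockout over wild-type, for the 31 genes from all 5 libraries (black points, bars are SE) and without wild-type replicate 3 (open diamonds). The dashed line is the median of all tested genes, 0.11, and the widest bar belongs to Pdk4 at 0.98.

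**Figure D5:**
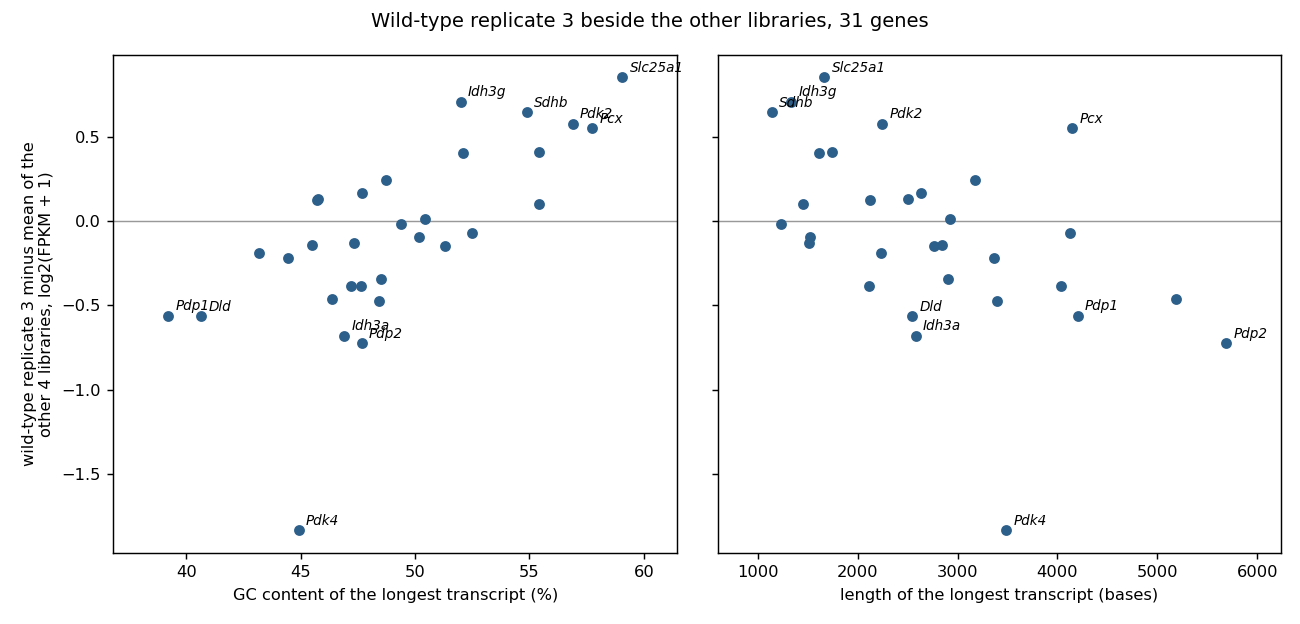
Distance of wild-type replicate 3 from the mean of the other 4 libraries, in log2(FPKM + 1), for each of the 31 genes against the GC content (left) and length (right) of its longest transcript. Slc25a1, at 0.85, is the top point and Pdk4, at -1.83, the lowest.

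Neighbouring genes of the pathway gave no called member either. From 4 related lists 47 genes were tested, 0 passed in either direction (limma adjusted p under 0.05), and 28 had a positive and 19 a negative fold change, with 5 whose groups did not overlap. That is 59.6% positive and 10.6% apart, against 63.9% and 20.8% of all tested genes. Among genes of pyruvate and lactate handling (12 tested, 4 positive), the mitochondrial pyruvate carrier genes Mpc1 and Mpc2 overlapped between genotypes. Pdpr, a regulatory subunit of the pyruvate dehydrogenase phosphatase, had 7.18 and 7.13 FPKM in knockout against 4.81, 4.81 and 2.78 FPKM in wild-type libraries. Its groups were apart, and the log2 fold change was 0.70 (limma adjusted p = 0.927), or 0.49 without wild-type replicate 3. The lactate transporter gene Slc16a1 had 2.42 and 2.71 FPKM in knockout against 2.04, 2.72 and 0.639 FPKM in wild-type libraries, and Slc16a3, another, had 48.7 and 41.7 FPKM against 42.2, 70.6 and 92.6 FPKM. Both overlapped.

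Of other enzymes and exits of the cycle (10 tested, 8 positive), Idh1, the cytosolic isocitrate dehydrogenase, had 212 and 306 FPKM in knockout against 206, 156 and 59.9 FPKM in wild-type libraries. The groups of Idh1 did not overlap, the log2 fold change was 1.03 (limma adjusted p = 0.927), and it was 0.50 without wild-type replicate 3. Mitochondrial Idh2, by contrast, had a fold change of -0.17, or -0.034 without wild-type replicate 3, and the difference between the genes was not tested. D2hgdh, which oxidises D-2-hydroxyglutarate, had 5.19 and 4.68 FPKM in knockout against 4.42, 3.73 and 3.19 FPKM in wild-type libraries, likewise apart. Irg1, which makes itaconate, had 41.2 and 40.6 FPKM in knockout against 19.5, 42.8 and 33.7 FPKM in wild-type libraries, and overlapped.

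In the list of glutamine and aspartate use and carriers (12 tested, 7 positive), no group was apart. Gpt2, mitochondrial alanine aminotransferase, had 2.16 and 2.84 FPKM in knockout against 2.09, 2.67 and 0.574 FPKM in wild-type libraries. Slc25a22, a glutamate carrier, had 22.6 and 16.3 FPKM in knockout against 17.3, 16.5 and 16.0 FPKM in wild-type libraries. The glutamine transporter gene Slc1a5 had 47.0 and 39.0 FPKM in knockout against 34.3, 48.1 and 28.5 FPKM in wild-type libraries.

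Transcription factors and deacylases known to act on these genes (13 tested, 9 positive) included 2 with groups apart, both lower in knockout. Pparg, a lipid-sensing nuclear receptor, had 2.28 and 2.27 FPKM in knockout against 2.31, 4.21 and 3.24 FPKM in wild-type libraries. Ppard, its relative and a known inducer of Pdk4, had 29.3 and 29.5 FPKM in knockout against 37.3, 30.1 and 33.6 FPKM in wild-type libraries. Neither passed. Sirt4, a mitochondrial sirtuin known to act on pyruvate and glutamate dehydrogenases, had 18.9 and 13.6 FPKM in knockout against 15.3, 13.1 and 4.22 FPKM in wild-type libraries, and Hif1a had 57.9 and 56.8 FPKM against 40.5, 69.6 and 26.3 FPKM. These overlapped, with wild-type replicate 3 lowest for both.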

How the data were processed

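Messenger RNA purified from 1 µg of total RNA was sequenced on an Ion Torrent system, and Torrent Suite 4.4 was used, per the labels' protocols. These state alignment to mm10 with TopHat2 and Bowtie2. Cufflinks gave the FPKM that the authors deposited for each gene. Another 17 deposited columns, derived from the FPKM, were not used. No read depth is given and FPKM hold none, so precision rests on the spread between libraries. The labels do not tie a library to an animal, so p-values reflect the spread among libraries alone, which may be technical.

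The values of wild-type replicate 3 followed a name sort that counts hyphens, so 2144 of 38757 rows were displaced and were realigned. Across 722 displaced, expressed rows, Pearson's r with the other 4 libraries was 0.171 as deposited and 0.916 after realignment. Rows with a number for a name (27) or names differing only in case (50) were left out, and FPKM were summed over rows of 1 symbol. Genes with at least 1 FPKM in at least 2 libraries (12214) were tested on log2(FPKM + 1) with limma 3.58.1 (R 4.3.3), using a mean-variance trend, genotype as the single term and Benjamini-Hochberg adjustment at 0.05. The log2 scale with its pseudocount understates changes of low genes. The fit was tested on simulated data in which a gene's spread was the same in all libraries. That test does not cover a library that stands apart, as wild-type replicate 3 did. The genes and lists were chosen with earlier results of these data known. Values in every library are given for genes whose groups do not overlap, for those at least 0.25 from the median log2 fold change of all genes and for the kinase, Idh3 and beta subunit families, and for the other genes by choice after their values were seen. From each related list the 3 genes of smallest unadjusted p are named, and other genes were named after their values were seen. Lengths, positions and shared 50-base stretches came from GENCODE M21 (GRCm38).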

Additional observations from a re-analysis of the deposited data

How the results depend on the processing

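Across 15 alternatives 0 of the 31 genes and 0 related genes passed, the lowest adjusted p of any of the 31 being 0.433. Genes called higher and lower, 5 and 2 as reported, were 2 and 1 in the row order as deposited, 1 and 0 with no filter, 1 and 1 with a filter at 5 FPKM, 3 higher with a pseudocount of 0.1, and 12 and 9 with library weights, and ran from 0 to 7 and from 0 to 7 with a library left out. Nrp1 passed with library weights (-1.43). Of the 31 genes, 11 had a positive fold change and 3 groups apart after median-of-ratios scaling, and 8 to 13 were apart with a library left out, when 32.4 to 43.6% of all tested genes were. The median relative to all genes, -0.04 as reported, was 0.055 with no filter. Same-numbered deviations from the group means had r of -0.05 and -0.01. Those of the 2 knockout libraries mirror each other by construction, so these values cannot settle whether replicate numbers pair the libraries. The replicate block called 3 genes higher and 1 lower.

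Signs turned in 24 of 269 values of 18 genes, for which the cause was not tested. Those 18 were picked by overlap, by a distance of 0.25 or by family, as stated above. Signs turned in most of the other genes as well. Of these, Pdhx, Pdp1, Ogdh and Dld were positive in all 16 fits. Cs and Suclg1 were positive in 15, Pdha1 and Sdhd in 14, Pcx and Sdha in 12, Dlat in 11, Pdhb in 10 and Sdhc in 6. Median-of-ratios scaling gave -0.086 for Pdk1, -0.064 for Pdk3, -0.053 for Idh3b, -0.0084 for Dlst and -0.048 for Sucla2. Quantile normalization gave -0.059 for Pdk1, -0.13 for Pdk3 and -0.041 for Sucla2, and library weights gave -0.0092 for Pdk3, -0.10 for Idh3a and -0.053 for Sucla2. The replicate block, in which wild-type replicate 3 has no pair, gave the values seen without that library, -0.15 for Pdk1, -0.10 for Pdk3, -0.075 for Idh3a and 0.030 for Idh3g. With a library left out Pdk1 ran from -0.18 to 0.42, Pdk3 from -0.10 to 0.20, Idh3a from -0.075 to 0.34, Idh3b from -0.058 to 0.25, Idh3g from -0.41 to 0.030 and Sucla2 from -0.052 to 0.19.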
